A study of Cavia porcellus with 12 samples.

Results

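The ductular reaction genes described here are EPCAM, CLDN4, CLDN7, CFTR, PKHD1, ELF3 and SPP1, 7 of the 11896 symbols in the table of log2 expression values from guinea pig liver. They were chosen by name, and all 7 were found in the table. The liver came from 6 guinea pigs with nonalcoholic steatohepatitis (NASH) and 6 controls of the Dunkin Hartley strain, all female and 10 weeks old on arrival. The NASH group was fed a high-fat diet with added sucrose and cholesterol for 25 weeks and the control group chow for the same time. The NASH animals were those with bridging fibrosis, whereas the controls were drawn at random from animals without NASH or fibrosis, so the comparison covers diet and disease together. Pieces of the left lateral lobe were taken from livers that had not been perfused, and their mRNA was sequenced. Each animal gave 1 library and is named by its number in the labels, namely 5, 10, 31, 32, 45 and 56 among the controls and 2, 9, 11, 20, 41 and 65 among the NASH animals.

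A ductular reaction is the expansion of small, bile duct-like cells at the border between portal tract and parenchyma in a chronically injured liver. The cells of bile ducts, cholangiocytes, form a sealed epithelium that carries primary cilia and secretes chloride, bicarbonate and water into bile. In healthy liver they are a small minority beside hepatocytes, and genes that hepatocytes use little can therefore mark them in whole tissue.

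Library totals lay between 16980274 and 33091460 counts. The TMM factors, which correct for the makeup of a library, were 0.804 to 0.875 in controls and 1.12 to 1.24 in NASH. Hepatocyte markers summed to between 112117 and 140300 CPM (counts per 1000000 counts of the TMM-scaled library) in controls and between 44895 and 72287 CPM in NASH, with ALB present in each library. A limit of 3 counts corresponded to 0.123 to 0.214 CPM in controls and 0.0765 to 0.105 CPM in NASH. No library stood apart by its total. The 7 measured erythroid markers summed to 58.6 to 176 CPM in controls and 446 to 742 CPM in NASH 2, 9, 11 and 20, but to 4664 CPM in NASH 41 and 3370 CPM in NASH 65.

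All 7 genes were higher in NASH at an adjusted p under 0.05 in the quasi-likelihood test of edgeR. Among all genes tested, 27.9% were called higher, 26.0% lower and 53.9% in either direction. The counts called in each gene list below are to be read beside these shares. The median log2 fold change of the 7 genes was 3.09, and that of all genes was 0.00. Scaling by library size alone, without TMM, moved the median of all genes to 0.48, with 7603 genes called higher and 911 lower in place of 3318 and 3093, and the fold changes given here are relative to the TMM centre. The order of change was CLDN7, CLDN4, EPCAM, CFTR, PKHD1, SPP1 and ELF3. In the deposited log2 values (rlog, a log2 scale that shrinks differences at low counts) the highest control lay below the lowest NASH animal for each of the 7 genes, which held in that direction for 18.3% of all genes. CPM gave the same 7. In whole tissue, more cells of a type and more RNA per cell cannot be told apart.

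**Figure D1:**
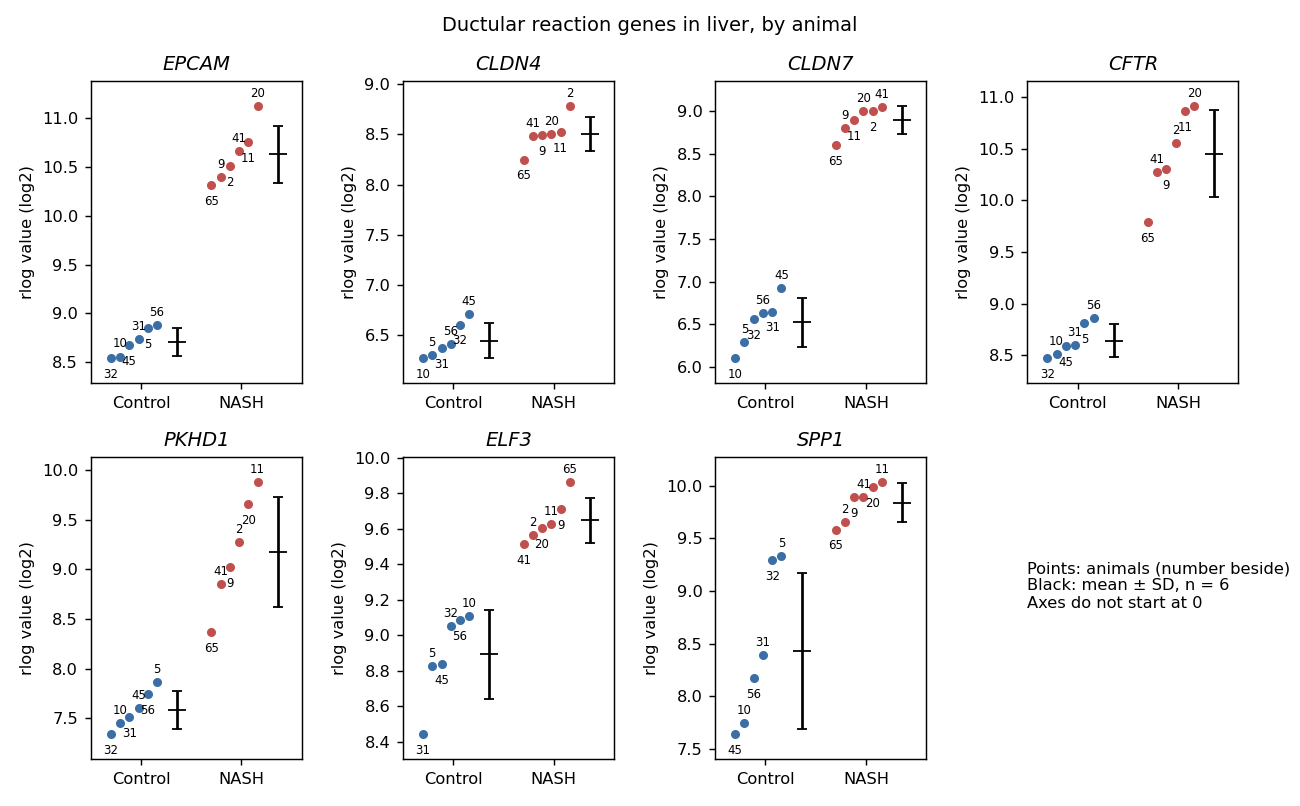
Deposited rlog values (log2) of the 7 ductular reaction genes in each of 6 control and 6 NASH animals, ordered from low to high within a group and labelled with the animal number, with the mean ± SD in black. No control reaches the lowest NASH animal in any panel, and the smallest gap, 0.25 on the rlog scale, is that of SPP1.

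The adhesion molecule and the claudins came first in size. EPCAM encodes a surface glycoprotein that joins epithelial cells and is carried in liver by cholangiocytes and progenitor cells, while mature hepatocytes lack it. Its level ran from 7.85 to 12.6 CPM in controls (median 10.1) and from 66.5 to 146 CPM in NASH (median 87.9). The lowest NASH animal, 65, was several times above the highest control, 56. The mean was 10.1 ± 1.99 CPM in controls and 93.8 ± 29.0 CPM in NASH (SD, n = 6 each). In edgeR this was a difference of 3.22 on the log2 scale (SE 0.21, adjusted p = 1.84e-07).

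CLDN4 and CLDN7 encode claudins, the transmembrane proteins that set how tight an epithelial junction is, and CLDN7 is known to bind EPCAM. CLDN4 ran from 0.572 to 2.18 CPM in controls (median 0.937) and from 18.2 to 32.2 CPM in NASH (median 23.9). Every control had few counts, 8 to 53, and every NASH animal had at least 521 counts. The log2 fold change was 4.33 (SE 0.29, edgeR adjusted p = 2.243e-07), from 1.16 ± 0.652 to 24.4 ± 4.49 CPM (SD, n = 6 each).

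CLDN7 was not detected in Control 10, where 0 counts allow up to 0.154 CPM, and reached 2.72 CPM in Control 45. In NASH it lay between 23.7 and 37.2 CPM with a median of 33.6 CPM. The NASH animals were close together for both claudins, with coefficients of variation of 18.4% for CLDN4 and 15.9% for CLDN7. For the few CLDN7 counts of the controls it was 81.7%. The log2 fold change of CLDN7 was 4.69 (SE 0.49, edgeR adjusted p = 6.161e-06) and it was 5.57 in limma-voom. The controls summed to 145 counts for CLDN4 and 150 for CLDN7, so both genes passed the deposited table's minimum of 200 counts only through the NASH libraries. The other 5 genes passed on the controls alone.

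The secretion and cilium genes changed by about the same amount as EPCAM. CFTR encodes the cAMP-regulated chloride and bicarbonate channel on the bile side of cholangiocytes. It ran from 7.71 to 13.1 CPM in controls (median 9.20) and from 39.9 to 124 CPM in NASH (median 78.5). The log2 fold change was 3.09 (SE 0.27, edgeR adjusted p = 1.67e-06). NASH 11 and 20 were highest, at 119 and 124 CPM, and NASH 65 was lowest.

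PKHD1 encodes fibrocystin, a protein of the primary cilium whose loss causes recessive polycystic kidney disease with congenital hepatic fibrosis. It ran from 2.98 to 6.86 CPM in controls (median 4.37) and from 13.4 to 67.5 CPM in NASH (median 32.5). The spread within NASH was the widest of the 7 genes, with a coefficient of variation of 54.4%. NASH 11 was highest and NASH 65 lowest. The log2 fold change was 3.01 (SE 0.37, edgeR adjusted p = 2.673e-05), from 4.65 ± 1.44 to 37.2 ± 20.2 CPM (SD, n = 6 each).

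ELF3 and SPP1 showed the smallest changes. ELF3 encodes an ETS transcription factor of epithelia. It ran from 8.57 to 20.8 CPM in controls (median 17.2) and from 33.3 to 48.8 CPM in NASH (median 37.1). The groups did not overlap, and the control closest to NASH was number 10. The log2 fold change was 1.25 (SE 0.19, edgeR adjusted p = 0.000118), from 16.4 ± 4.68 to 38.8 ± 5.52 CPM (SD, n = 6 each).

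SPP1 encodes osteopontin, a secreted phosphoprotein that cholangiocytes and macrophages make and that integrins and CD44 bind. The controls split widely, with 28.7 CPM in Control 5, 27.8 in Control 32, 8.89 in Control 31, 6.26 in Control 56, 2.87 in Control 10 and 2.35 in Control 45. The NASH animals lay between 37.8 and 60.6 CPM (median 52.2). The control coefficient of variation was 95.2%, against 17.8% in NASH. The log2 fold change was 1.98 (SE 0.56, edgeR adjusted p = 0.00932), which ran from 1.75 without Control 45 to 2.38 without Control 32 and was 2.68 in limma-voom. Against a null of an absolute log2 fold change of 1 (glmTreat of edgeR), SPP1 had an adjusted p of 0.145 and ELF3 of 0.253, and the other 5 genes were called.

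SPP1 is also a macrophage gene. The 14 measured macrophage markers summed to 449 to 847 CPM in controls and 1434 to 1880 CPM in NASH, with 7 of the 14 called higher and 1 lower, or 11 and 1 with library size alone. The defining markers gave log2 fold changes of 7.22 for TREM2 (SE 0.59), which was at 0 counts in 5 of 6 controls, 3.21 for GPNMB, 0.69 for CD68, 0.41 for CSF1R (edgeR adjusted p = 0.243, or 0.0154 with library size alone) and −1.27 for MARCO. The controls with most SPP1, 5 and 32, had the lowest macrophage sums among controls, at 449 and 666 CPM. The part of macrophages in the NASH level of SPP1 was not tested.

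On the rlog scale the mean differences between NASH and control were 2.36 for CLDN7, 2.07 for CLDN4, 1.92 for EPCAM, 1.81 for CFTR, 1.59 for PKHD1, 1.41 for SPP1 and 0.76 for ELF3. The exact permutation test over all divisions of the 12 animals gave p = 0.00216 for each gene, the smallest it can give, and 0.00642 after adjustment over all 11896 genes. Leaving out both NASH animals with the highest erythroid sums, an alternative chosen after seeing the data, kept all 7 calls, with edgeR log2 fold changes from 1.20 for ELF3 to 4.73 for CLDN7.

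Whether the 7 genes changed by equal amounts was tested within animals, as the log2 ratio of CPM values (prior count 2) for each of the 21 pairs. Of these ratios, 12 differed between groups at an adjusted p under 0.05 in the exact permutation test, 9 with a claudin and 3 without. Since CLDN4 and CLDN7 entered the table through their NASH counts, the ratios with a claudin are given as values and support nothing on their own. The log2 ratio of CLDN4 to ELF3 changed by 3.15, that of CLDN7 to ELF3 by 4.05, that of EPCAM to CLDN4 fell by 1.26 and that of EPCAM to CLDN7 fell by 2.16. In the rlog values, where differences at low counts are shrunk, the EPCAM to CLDN4 ratio fell by 0.14 and no longer passed (exact permutation adjusted p = 0.416). The same held for CLDN4 with CFTR (exact permutation adjusted p = 0.225) and with PKHD1 (exact permutation adjusted p = 0.115).

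The 3 ratios without a claudin were those of ELF3 to EPCAM, CFTR and PKHD1. ELF3 rose less than EPCAM by 1.89 on the log2 scale, and this ratio separated the groups fully (exact permutation p = 0.00216, the smallest possible, adjusted p = 0.0152). It rose less than CFTR by 1.71 (exact permutation adjusted p = 0.0195), and the log2 ratio of ELF3 to PKHD1 fell by 1.55 (exact permutation adjusted p = 0.0265).

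The ratio of EPCAM to CFTR changed by 0.18 on the log2 scale, from 0.02 ± 0.09 in controls to 0.20 ± 0.37 in NASH (SD, n = 6 each, exact permutation adjusted p = 0.351). That of CFTR to PKHD1 changed by 0.16, from 1.11 ± 0.19 to 1.27 ± 0.27 (SD, n = 6 each, exact permutation adjusted p = 0.324). On the rlog scale the latter change was 0.23 with an exact permutation adjusted p of 0.0379. Without NASH 2, only 3 of the 21 ratios differed, those of ELF3 to EPCAM, CLDN4 and CLDN7, where the smallest adjusted p was 0.0455. The log2 ratio of CFTR to ELF3 then changed by 1.65 (exact permutation adjusted p = 0.0568) and that of ELF3 to PKHD1 fell by 1.49 (exact permutation adjusted p = 0.0579), close to the values with all animals.

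Agreement between genes across animals was examined within each group, since the groups stand apart for each gene. Pearson's r of the rlog values was computed for 21 pairs in each group, 42 relations in all, with p from all 720 orders of the animals. In NASH, 15 of 21 pairs had a positive r. These were the 15 pairs among the genes other than ELF3, whose r ran from 0.11 to 0.98 with a median of 0.68. In controls, 10 of 21 pairs were positive, and the 15 pairs without ELF3 had a median r of 0.11. In each group 3 pairs had an unadjusted exact permutation p under 0.05, and none passed after adjustment over the 42 relations, with 0.0583 as the smallest adjusted exact permutation p. A single pair could not pass, since the smallest p that 720 orders give, 0.00139, becomes 0.0583 when it stands alone among 42 relations.

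**Figure D2:**
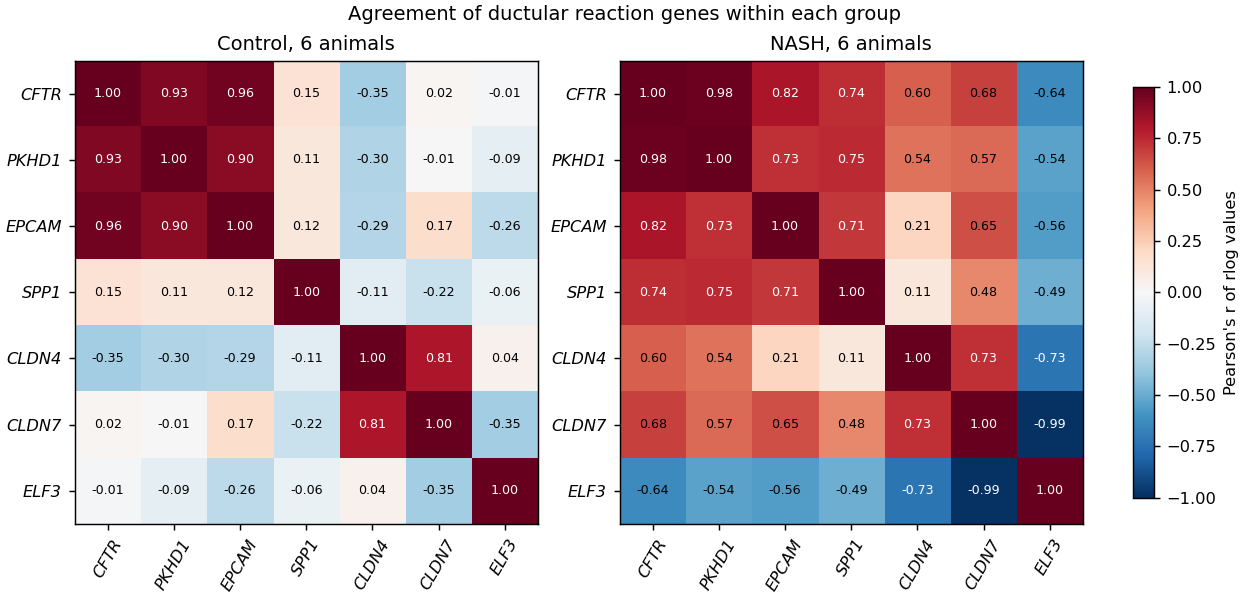
Pearson's r between the rlog values of each pair of ductular reaction genes across 6 control animals (left) and 6 NASH animals (right), coloured from −1 (blue) to 1 (red). CFTR, PKHD1 and EPCAM form a block of positive r in both groups, and the ELF3 row is negative throughout in NASH.

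CFTR and PKHD1 were the pair with the highest r in NASH. There r was 0.98 (exact permutation p = 0.00417) and Spearman's rho 0.94 (exact permutation p = 0.0167), both at n = 6. Without NASH 20 and 65, the animals farthest from the median of CFTR, r was 0.99. In controls the same pair had r = 0.93 (exact permutation p = 0.0111) and rho = 0.89 (exact permutation p = 0.0333), and r = 0.88 without Control 5 and 56. The range of CFTR among controls was narrow, from 8.47 to 8.86 on the rlog scale.

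EPCAM went with both. With CFTR its r was 0.96 in controls (exact permutation p = 0.00278), where the 6 animals stood in the same order for both genes (rho = 1.0, exact permutation p = 0.00278). In NASH r was 0.82 (exact permutation p = 0.0431) and rho 0.83 (exact permutation p = 0.0583). Without the 2 animals farthest from the EPCAM median, r was 0.92 in controls and 0.59 in NASH. Without single animals the NASH value was 0.76 to 0.86. EPCAM and PKHD1 had r = 0.90 in controls (exact permutation p = 0.025, rho = 0.89, exact permutation p = 0.0333), and 0.85 without Control 32 and 56. In NASH their r was 0.73 (exact permutation p = 0.0931, rho = 0.77, exact permutation p = 0.103), and 0.53 without NASH 20 and 65. Control 5 and 56 were the 2 highest controls for EPCAM, CFTR and PKHD1. Their libraries were the smallest, 17414347 and 16980274 counts, against 23330165 to 28636467 in the other controls. EPCAM counts in controls ran only from 155 to 234. The part of library size in the control correlations was not tested.

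The claudins had r = 0.81 in controls (exact permutation p = 0.0514) and rho = 0.77 (exact permutation p = 0.103), which did not pass and comes from 0 to 66 counts per animal. Without Control 32 and 45 r was 0.95. In NASH r was 0.73 (exact permutation p = 0.172) and rho 0.37 (exact permutation p = 0.497), and r was −0.28 without NASH 2 and 65, with 4 animals left, and 0.28 to 0.85 without single animals. Between the claudins and the block of CFTR, PKHD1 and EPCAM, r ran from −0.35 to 0.17 in controls and from 0.21 to 0.68 in NASH. Several of these NASH values rested on few animals. Without the 2 animals farthest from the median of 1 gene of the pair, r was −0.25 for EPCAM and CLDN4, −0.10 for CFTR and CLDN7 and −0.87 for CLDN7 and PKHD1, whereas it was 0.43 for EPCAM and CLDN7, 0.24 for CFTR and CLDN4 and 0.97 for CLDN4 and PKHD1.

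The 6 values of r of ELF3 within NASH lay between −0.99 and −0.49, and in controls between −0.35 and 0.04. Without NASH 65 alone, r of ELF3 was 0.05 with CFTR, 0.28 with SPP1 and 0.20 with PKHD1. With EPCAM, CLDN4 and CLDN7 it stayed negative without any single animal. Of the NASH values 3 turned positive without NASH 65 and another animal. Without these, the 2 animals farthest from the median of 1 gene of the pair, r was 0.06 with CFTR, 0.04 with SPP1 and 0.32 with CLDN4, and it was −0.53 with EPCAM and −0.43 with PKHD1. CLDN7 and ELF3 stood in exactly opposite order among the NASH animals, with r = −0.99 (exact permutation p = 0.00139) and rho = −1.0 (exact permutation p = 0.00278). Without NASH 9 and 65 r was −0.84. In controls the same pair had r = −0.35 and rho = −0.49. Both genes were nevertheless higher in each NASH animal than in any control.

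**Figure D3:**
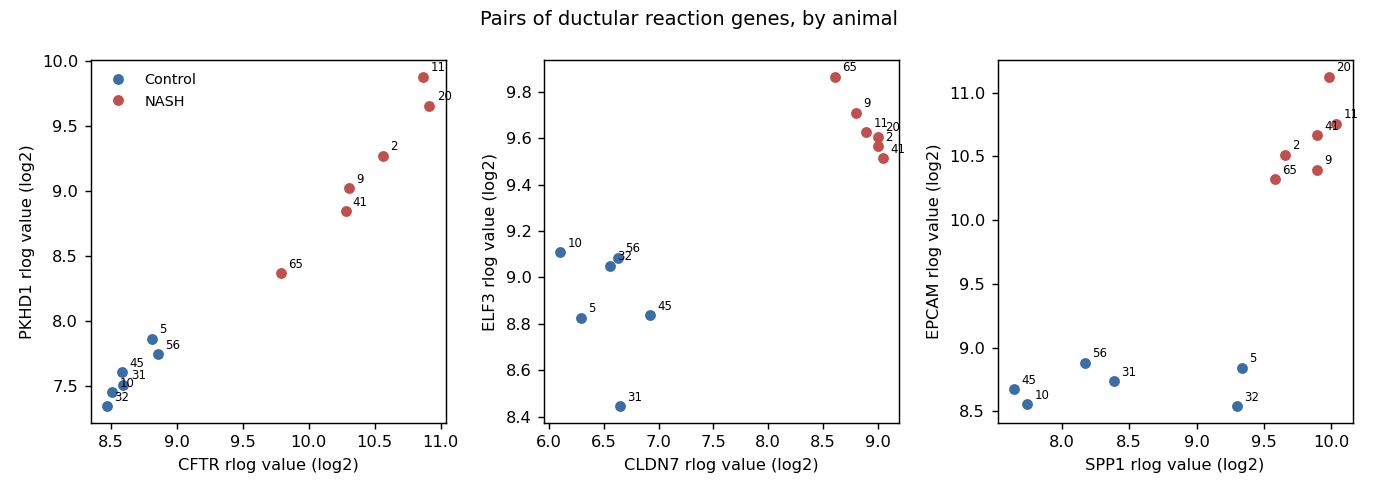
rlog values (log2) of CFTR against PKHD1, CLDN7 against ELF3 and SPP1 against EPCAM, 1 point per animal with its number, controls in blue and NASH in red. CFTR and PKHD1 keep nearly the same order of animals in each group, CLDN7 and ELF3 run in opposite order within NASH (r = −0.99), and SPP1 varies among controls while EPCAM hardly does.

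Single animals held extreme positions for several genes. NASH 65 was lowest of 6 for EPCAM, CFTR, SPP1, CLDN4, CLDN7 and PKHD1 and highest for ELF3. NASH 11 was highest for SPP1 and PKHD1, and NASH 20 for EPCAM and CFTR. No value of the 7 genes stood apart from its group by Dixon's test, for which the largest ratio, 0.574 for ELF3 in Control 31, was below the critical value for 6 samples. NASH 65 also had the second highest erythroid sum, 3370 CPM, and the lowest sum of the other cholangiocyte markers among NASH animals, 465 CPM against 518 to 831 CPM in the others. Its stellate sum was the lowest in NASH, 1480 CPM, and its hepatocyte sum the highest, 72287 CPM against 44895 to 60623 CPM. The part of these shifts in its low values was not tested. NASH 41, with more erythroid signal, was lowest for ELF3 and next to NASH 65 at the low end for CFTR, CLDN4 and PKHD1. It was highest for CLDN7 and had rank 3 of 6 for EPCAM and SPP1. Without both animals the edgeR log2 fold changes of CFTR and PKHD1 were each 3.33, against 3.09 and 3.01 with them. Those of EPCAM, SPP1, CLDN4 and CLDN7 were 3.31, 2.04, 4.42 and 4.73, against 3.22, 1.98, 4.33 and 4.69. That of ELF3 was 1.20, against 1.25. All genes of an animal share its library and scaling factor, and the part of either in these correlations was not tested.

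The likeness of other genes was measured as Pearson's r between their rlog deviations from the group mean and the mean scaled deviation of the 7 genes, over 12 animals. The 7 genes themselves, each of which is part of that mean and is raised by it, had values of 0.89 for CFTR, 0.85 for PKHD1, 0.75 for EPCAM, 0.56 for CLDN4, 0.55 for CLDN7, 0.35 for SPP1 and −0.17 for ELF3. The 5 most alike of all other symbols were PLD1 (0.95), DCLK1 (0.94), ZMAT3 (0.92), KHDRBS1 (0.91) and RAB33B (0.91). Of these DCLK1, which encodes a microtubule-binding kinase found in tuft cells, was higher in NASH by 4.15 on the log2 scale (edgeR adjusted p = 1.08e-07) and PLD1 by 0.66 (edgeR adjusted p = 0.000149). ZMAT3, KHDRBS1 and RAB33B were not called. For single genes, chosen after their values were seen, DCDC2 was nearest to CFTR after PKHD1 (0.96), and EHF was nearest to PKHD1 after CFTR (0.95).

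Other markers of cholangiocytes were compared as the label check and gave a mixed picture. Of 14 listed, 9 were measured. The test called 5 higher and 2 lower, and the median log2 fold change was 1.64. With library size alone 7 were higher and 1 lower. KRT7 and KRT19, the keratins that define bile duct epithelium, were higher by 3.09 (SE 0.31, edgeR adjusted p = 4.80e-06) and 1.64 (SE 0.17, edgeR adjusted p = 5.87e-06). KRT7 had a median of 3.25 CPM in controls and ran from 16.8 to 38.8 CPM in NASH, and KRT19 ran from 34.7 to 70.5 CPM in controls and from 141 to 213 CPM in NASH. Neither overlapped between the groups. DCDC2, a cilium protein of the duct, was higher by 3.06, PROM1, a progenitor surface marker, by 2.81 from 95 control counts in all, fewer than the minimum of 200, and the tetraspanin TSPAN8 by 2.20. ANXA4 had a log2 fold change of 0.14 (edgeR adjusted p = 0.531, or 0.0092 with library size alone). CDH6 was lower by 1.15 and FGFR2 by 0.79, the former a call lost with library size alone (edgeR adjusted p = 0.0832). SOX9 was not among the symbols. The keratins thus moved in the direction of the 7 genes, and FGFR2 and CDH6 did not.

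**Figure D4:**
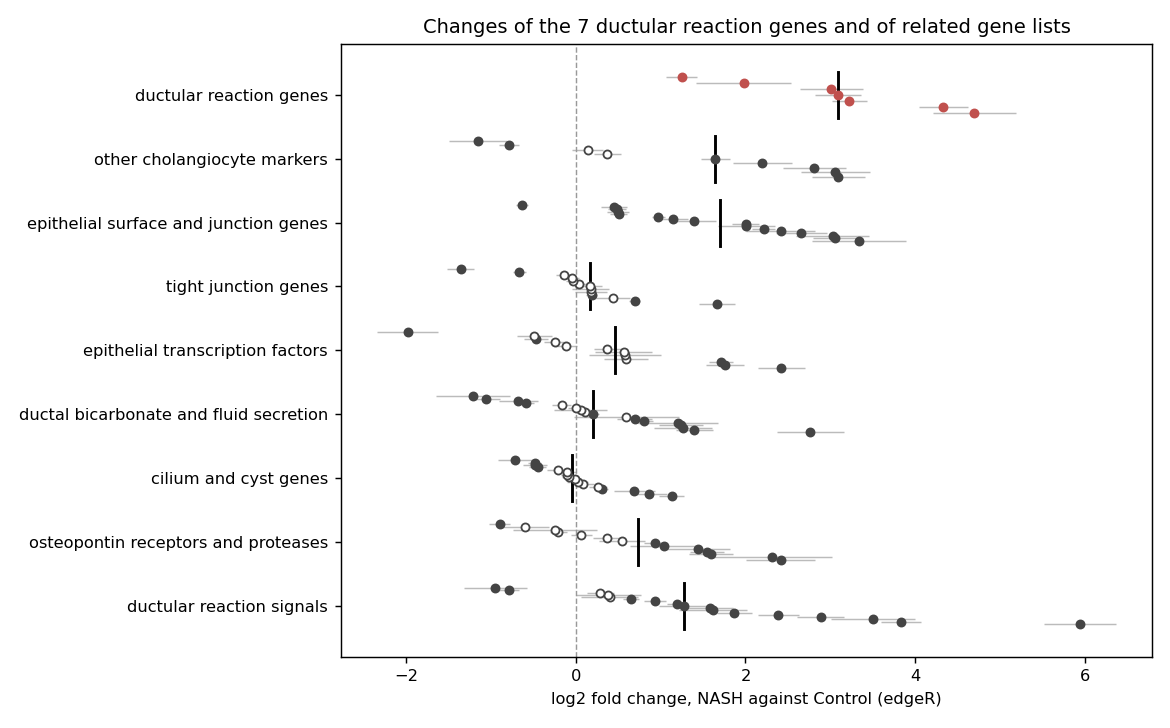
edgeR log2 fold changes, NASH against control, of the 7 ductular reaction genes (red) and of the measured genes of 8 related lists, with SE as grey lines, filled points for an adjusted p under 0.05, open points otherwise, and the median of each list as a black bar. The 7 genes have a median of 3.09, the epithelial surface genes 1.69, and tight junction genes and cilium genes lie around 0 with medians of 0.17 and −0.04.

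Most tight junction genes other than CLDN4 and CLDN7 did not pass the test. Of 29 listed, 13 were measured, and 3 of them were called higher, 2 lower and 8 neither (median 0.17). Over all genes tested, 27.9% were called higher and 53.9% in either direction. With library size alone 11 were higher and 1 lower. CLDN10, a claudin of ion-permeable junctions, was higher by 1.67, the scaffold PATJ by 0.69, and CLDN14 and CLDN15 were lower by 1.35 and 0.67. The call of CLDN15 was lost with library size alone (edgeR adjusted p = 0.0509). PARD3, a polarity protein, had a log2 fold change of −0.14 (edgeR adjusted p = 0.228), which turned positive and was called higher with library size alone. MARVELD3 had a log2 fold change of 0.44 (edgeR adjusted p = 0.0805, or 0.00117 with library size alone). CLDN3, singled out after its values were seen as another claudin of bile duct epithelium, ran from 4.51 to 8.85 CPM in controls and from 6.19 to 8.19 CPM in NASH, and its log2 fold change was 0.17 (edgeR adjusted p = 0.309), or 0.65 and called higher with library size alone (edgeR adjusted p = 0.00131). Within animals the log2 ratio of CLDN4 to CLDN3 went from −2.57 ± 0.76 in controls to 1.67 ± 0.32 in NASH (SD, n = 6 each), a description of a pair picked for its contrast.

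Genes of the epithelial surface and of anchoring junctions were mostly higher, as EPCAM was. Of 21 listed, 16 were measured, of which 15 rose and 1 fell (median 1.69). Of the 16, 11 had at least 200 counts in controls alone, and the rest entered the table through NASH. The membrane protease matriptase, ST14, was higher by 3.06 (SE 0.27, edgeR adjusted p = 1.48e-06), and its partner prostasin, PRSS8, by 3.34 from 19 control counts in all. PRSS8 shares its count row with another symbol. The smallest changes were those of JUP, or plakoglobin (0.49), and the integrin ITGA6 (0.46), and the splicing factor ESRP2 was lower by 0.63.

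Of 19 listed epithelial transcription factors 12 were measured beside ELF3, and 3 rose while 2 fell (median 0.47), or 8 and 1 with library size alone. EHF, an ETS factor of the same epithelial subfamily, was higher by 2.42 (SE 0.28, edgeR adjusted p = 1.25e-05), running from 2.16 to 3.16 CPM in controls and from 6.58 to 22.0 CPM in NASH. KLF5 was higher by 1.76 and ELF4 by 1.71. FOXA2 and GATA6, factors of foregut endoderm, were lower by 1.98 and 0.46, the latter turning to a fold change near 0 (0.01) with library size alone, and ONECUT1 had a log2 fold change of −0.49 (edgeR adjusted p = 0.0607).

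Genes that work with CFTR in ductal secretion were mixed. Of 23 listed, 17 were measured. Of these 8 rose, 4 fell and 5 did not pass (median 0.21), and with library size alone 11 rose and 1 fell. The carbonic anhydrase CA2, the bile acid receptor GPBAR1 and the nucleotide receptor P2RY2 were higher by 2.77, 1.40 and 1.27, and GPBAR1, with 120 control counts, passed the minimum of 200 only through NASH. The sodium-potassium-chloride carrier SLC12A2 was lower by 1.21, the anion exchanger SLC26A6 by 1.05 and the sodium pump subunit ATP1B1 by 0.67. With library size alone the calls of SLC12A2 and ATP1B1 were lost (edgeR adjusted p = 0.135 and 0.463). CA2 is also abundant in red cells, and its 60.3 CPM in NASH 41 and 38.4 CPM in NASH 65, the animals with most erythroid signal, compare with 12.8 to 18.0 CPM in the other NASH animals and 2.94 to 6.29 CPM in controls. The part of red cells in it was not tested.

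The cilium and cyst genes beside PKHD1 did not move one way. Of 21 listed, 16 were measured, with 4 called higher, 4 lower and 8 neither, near the 27.9% higher and 26.0% lower of all genes. Their median was −0.04, and 0.43 with library size alone, under which 11 were higher. TULP3, TMEM67 and PKD2, which carries polycystin 2, were higher by 1.13, 0.86 and 0.69. CC2D2A, MKS1 and LRP5 were lower by 0.71, 0.48 and 0.48. With library size alone all 4 lower calls were lost, with log2 fold changes of −0.24, −0.01 and −0.01 for these 3 genes. Each of the 16 log2 fold changes was smaller than that of PKHD1, a difference that was not tested.

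For SPP1, 14 of 18 listed integrins, proteases and other partners of osteopontin were measured. Of these 7 rose and 1 fell (median 0.74), or 10 and 1 with library size alone (median 1.21), and 12 of the 14 had 200 counts in the controls alone, ITGB6 and ITGA4 being the others. The integrins ITGB6 and ITGA4, the protease urokinase, PLAU, and the receptor CD44 were higher by 2.41, 2.32, 1.59 and 1.54. CD44 was named after its values were seen. Thrombin, F2, which cleaves osteopontin and is made by hepatocytes, was lower by 0.90. Transglutaminase, TGM2, and ITGA8 had log2 fold changes of −0.59 and −0.24 and were not called (edgeR adjusted p = 0.092 and 0.70), and ITGA8 turned positive with library size alone.

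Of 19 listed signals known to drive or accompany a ductular reaction, 17 were measured. Of these 12 rose and 2 fell (median 1.27), and with library size alone 14 rose and 1 fell. Of the 17, 12 had 200 counts in the controls alone, and CCL2 and FGF7, with 47 and 27 control counts, were among those that entered through NASH. The chemokine CCL2 was higher by 5.93 (SE 0.42), from 0.135 to 1.06 CPM in controls to 17.1 to 44.4 CPM in NASH. TNFRSF12A, the receptor of the cytokine TWEAK, was higher by 3.83 (SE 0.24, edgeR adjusted p = 1.49e-07), from 2.42 to 6.56 CPM to 53.6 to 83.1 CPM. FGF7, a growth factor of mesenchymal cells that acts on epithelium, was higher by 3.50. Its receptor gene FGFR2 and EGFR were lower by 0.79 and 0.95, the latter a call lost with library size alone (−0.47, edgeR adjusted p = 0.246), and YAP1 was not called at 0.29 (edgeR adjusted p = 0.137), though it was with library size alone (0.77, edgeR adjusted p = 0.000523).

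Lists of other cells moved as well. All 7 measured erythroid markers were higher (HBA1 at 3.79, ALAS2 at 4.49 and SLC4A1 at 6.38). Of 9 stellate cell markers 7 were higher and 1 lower (median 1.20, with COL1A1 at 4.21, PDGFRB at 1.79, ACTA2 at 1.15 and LRAT at −0.57, a call lost with library size alone), and their sum was 698 to 840 CPM in controls and 1480 to 2948 CPM in NASH. Of 10 hepatocyte markers 9 were lower, or 5 with library size alone, where ASGR1 was called higher (median −0.87, with TTR at −2.20, ALB at −1.29 and APOA1 at −0.83, adjusted p in edgeR 0.0597), and of 9 proliferation genes 8 were higher (TOP2A by 4.29). Only 4 of these 9 genes and 1 of the 7 erythroid markers had 200 counts in the controls alone, so their counts were partly set by the table's minimum. The defining markers SOX9, CD163, HNF4A, HBB, MKI67 and CDK1 were not among the symbols. The other cholangiocyte markers summed to 390 to 471 CPM in controls and 465 to 831 CPM in NASH. What share of the changes of the 7 genes goes with these shifts was not tested.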

How the data were processed

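Liver mRNA of 12 animals was sequenced as stranded single reads. Per the labels and methods, the authors trimmed reads with Trimmomatic 0.38.0, mapped them with HISAT2 2.1.0 to Cavpor3.0, dropped multimapped reads and quantified with StringTie 1.3.6. The authors deposited raw counts per locus and, for 11896 human orthologue symbols with at least 200 counts in all, log2 values from the rlog function of DESeq2. Symbols are paired with no locus in the count table. The rlog step was therefore run again on the counts, and rows were assigned to symbols by equal values, which recovered the deposited log2 values of all 11896 symbols within 1e-06. Each of the 7 genes has a row of its own, whereas 1515 symbols share one. Genome positions are not given in these tables and no sequence was used here.

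Groups were taken from the sample titles. Counts were tested in R 4.3.3 with edgeR 4.0.16 (TMM factors, table totals as library size, robust glmQLFit and glmQLFTest) over all 11896 symbols, with Benjamini-Hochberg adjustment and a threshold of 0.05. The SE is the log2 fold change over the square root of F. CPM uses TMM-scaled library sizes, and log2 CPM a prior count of 2. Within every pair of animals of a group the counts differed by more than counting error (46.8 or more chi-square per gene). Single values were tested by exact permutation, two-sided. The edgeR fit and the exact tests were first tested on simulated data. DESeq2 1.42.0 and limma 3.58.1 were alternatives. The 7 genes, the lists and the tests were chosen with earlier results of these data known. Named were the 7 genes, the 3 highest and 3 lowest of each list for the duct, its signals and osteopontin, defining markers and the 5 symbols most alike the 7 genes. The full lists of other cells are given by counts and defining markers. A few genes that this rule names are not reported here. Human and murine data sets were not analysed here.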

Additional observations from a re-analysis of the deposited data

How the results depend on the processing

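All 7 genes stayed called higher with other scaling, in DESeq2 and limma-voom, with other filters on low counts, at an adjusted p under 0.01 and without any single animal, and 5 of 7 with glmTreat at a log2 fold change of 1. Leaving out each animal in turn gave log2 fold changes of 3.05 to 3.30 for EPCAM, 2.95 to 3.23 for CFTR, 1.75 to 2.38 for SPP1, 4.20 to 4.62 for CLDN4, 4.43 to 5.15 for CLDN7, 1.11 to 1.33 for ELF3 and 2.75 to 3.18 for PKHD1. The number of ratios that differed between groups was 12, and 3 to 13 without single animals, with 3 without NASH 2, and the cause was not tested. The number of positive correlations was 14 to 15 of 21 in NASH and 8 to 12 of 21 in controls without single animals. The pairs behind the NASH count did not stay the same. Without NASH 65 alone, r was −0.86 for SPP1 and CLDN4 and −0.32 for EPCAM and CLDN4. It was then −0.27 for SPP1 and CLDN7 and −0.11 for CLDN7 and PKHD1, and positive for ELF3 with SPP1, PKHD1 and CFTR. Scaling by library size alone moved the median of all genes by 0.48 on the log2 scale, kept the 7 calls (1.72 for ELF3 to 5.17 for CLDN7) and lowered the number of list entries called lower from 29 to 13, where FGFR2 counts in both of its lists. No paired analysis was possible because the groups share no animal numbers. Few control counts limit the size of the CLDN4 and CLDN7 changes.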
